A study of Mus musculus with 102 samples.

Results

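The comparison described here sets lumbar spinal microglia of ABC-imKO mice (KO) against those of wild type (WT) mice, both after cisplatin and saline. It uses 3 KO samples (numbered 4, 5 and 6) and 3 WT samples (4, 5 and 6), which are 6 of the 17 biological samples of the series. ABC-imKO mice carry Abca1fl/fl and Abcg1fl/fl with Cx3cr1-CreERT2, so that a Cre recombinase made from the Cx3cr1 gene can delete both floxed genes when it is induced; the labels give no more on WT than its name, and no age for either genotype. Both groups received cisplatin intraperitoneally on days 1 and 3 and saline intrathecally on day 7, which leaves genotype as the labelled difference between them. The remaining samples were 3 KO and 3 WT naive samples, 3 KO samples given cisplatin and AIBP (apolipoprotein A-I binding protein) in place of saline, and 2 WT samples given cisplatin and AIBP. Cells were stained and sorted as resident microglia, and each sample is the sum of 3 technical replicates over 2 lanes. Whether a number stands for 1 mouse or several is not labelled, and p-values reflect no more than the variation among the numbered samples, which may be technical.

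Microglia are the resident macrophages of the spinal cord. ABCA1 and ABCG1 move cholesterol out of the cell to apolipoproteins such as apolipoprotein E, and the genes of all 3 proteins are targets of the liver X receptors (LXR), nuclear receptors that respond to oxidised sterols. Cholesterol left in the plasma membrane is known to favour the lipid rafts in which toll-like receptor 4 signals, and cisplatin is a chemotherapy drug known to cause a painful neuropathy. Homeostatic microglia are recognised by genes such as Cx3cr1, Tmem119 and Olfml3, which are lowered in many activated states.

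Of 20461 genes tested with edgeR's quasi-likelihood test, 9 passed at an adjusted p under 0.05, which is 0.0440% of the genes tested. Higher in KO were 4 genes (0.0195%): Apoe, Klf13, Il15ra and Lifr. Lower in KO were 5 genes (0.0244%): Olfml3, Cx3cr1, Cd72, Fam110a and Hspa1b. All 9 had a mean of at least 10 CPM (counts scaled by library size, edgeR) in the group where they were higher. In all 9 the 3 KO samples lay wholly to one side of the 3 WT samples. Over all genes tested, this was so for 6.10% (KO above) and 6.40% (KO below). The 9 genes were chosen by their p in these samples, so their separation adds no evidence. At an unadjusted p under 0.05 stood 1837 genes, 788 higher and 1049 lower in KO. The count of 9 depended on single samples: it was 1 without KO 4, 1 without KO 5, 32 without KO 6 and 2 without WT 6, with Apoe called in each of these fits, and 0 in a fit of the 6 samples alone.

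**Figure D1:**
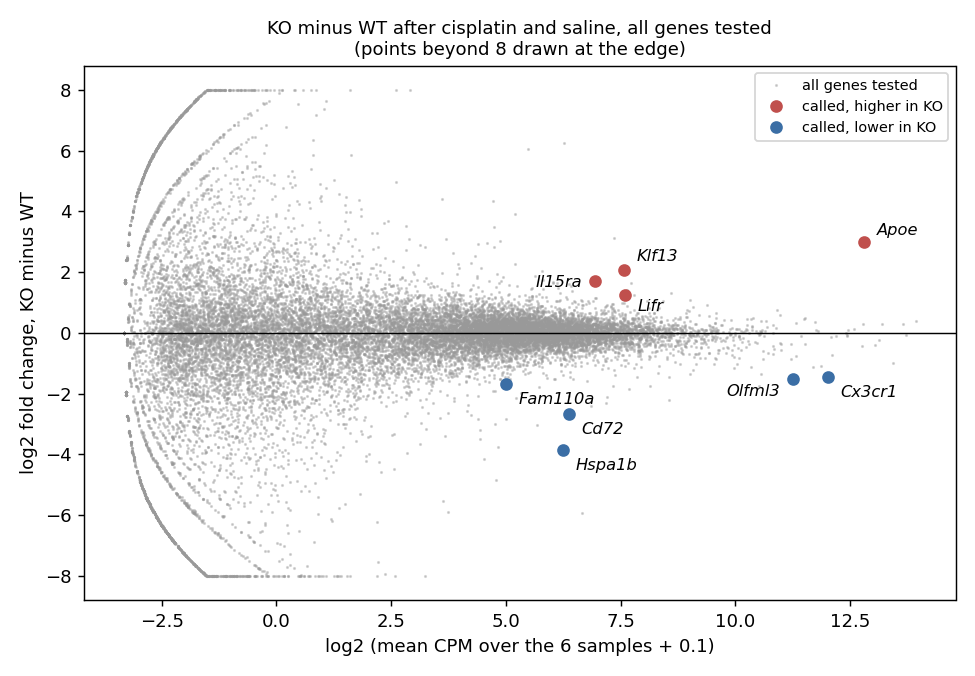
The log2 fold change (KO minus WT) after cisplatin and saline is plotted against log2 mean CPM over the 6 samples for each of the 20461 genes tested, with the 4 genes called higher in KO in red and the 5 called lower in blue. The called genes lie to the right of the wide spread of weakly expressed genes, and Apoe is by far the most abundant of those higher in KO.

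The promoters of the lipid carrier gene Apoe and of Cx3cr1, the gene that also drives the Cre, are shown because these genes frame the comparison. Each line gives the 250 bases before the gene's most upstream RefSeq start, 5′ to 3′ on the gene's strand (the minus strand for both), on GRCm38.p6. The first covers chr7:19699189-19699438 and the second chr9:120068297-120068546.
Apoe: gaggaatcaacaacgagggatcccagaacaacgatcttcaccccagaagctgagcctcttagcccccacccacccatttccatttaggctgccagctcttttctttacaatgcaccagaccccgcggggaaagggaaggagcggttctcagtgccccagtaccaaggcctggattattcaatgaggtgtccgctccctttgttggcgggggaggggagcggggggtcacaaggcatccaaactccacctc
Cx3cr1: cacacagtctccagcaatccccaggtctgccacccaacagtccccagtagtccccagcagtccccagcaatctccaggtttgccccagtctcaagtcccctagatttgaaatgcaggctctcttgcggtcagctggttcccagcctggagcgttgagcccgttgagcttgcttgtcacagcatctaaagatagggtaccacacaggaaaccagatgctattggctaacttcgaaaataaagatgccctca

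Short motifs of 6 factors or factor families were searched on both strands in RefSeq windows of 300 bases (250 before to 50 after each start), of which the 9 called genes have 15. None of the windows of Apoe, Olfml3, Cx3cr1, Klf13 or Hspa1b held a match. The motif of PU.1 (AGGAAGT), the transcription factor that macrophages and microglia depend on, was found 49 bases before the start of Cd72 and 168 bases before a start of Fam110a, with another match that crosses the same start; 9.35% of all 32851 windows hold it. Both stretches are printed with the match in capitals, the first from chr4:43454654-43454690 and the second from chr2:151980366-151980402, each on the minus strand.
Cd72: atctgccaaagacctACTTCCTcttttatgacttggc
Fam110a: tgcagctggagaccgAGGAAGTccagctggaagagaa

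Of the other motifs, AP-1 (TGANTCA, in 7.81% of windows) matched 1 window of Il15ra, the nuclear receptor element AGGTCA (16.3%) 1 window of Lifr, and a sterol element (TCACNCCAC, 1.24%) 1 window of Fam110a. The E box CACGTG (7.15%) and the interferon-sensitive core (3.44%) matched none of the 15 windows. A match or its absence describes these letters only.

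The targeted genes did not separate the genotypes after cisplatin and saline. Abca1 (chromosome 4, 53030787 to 53159895) stood at 98.5, 56.6 and 59.7 CPM in KO samples, against 61.8, 76.1 and 60.4 CPM in WT samples (log2 fold change 0.11 ± 0.28 SE, adjusted p = 0.971). Abcg1 (chromosome 17, 31057675 to 31117988) stood at 68.4, 50.9 and 54.1 CPM in KO, against 42.7, 56.4 and 65.7 CPM in WT (0.07 ± 0.32, adjusted p = 0.992). The groups overlapped for both. The counts are per gene and take in exons outside the floxed ones, so they do not measure the deletion.

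Apoe (chromosome 7, 19696109 to 19699188), which encodes the main lipid-carrying apolipoprotein of the central nervous system, was the gene with the smallest p. Its levels were 21278, 8744 and 8111 CPM in KO samples, against 1405, 1533 and 1898 CPM in WT samples. The lowest KO sample was well above the highest WT sample, and KO 4 stood apart from the other KO samples at more than their level combined. Over the group, Apoe averaged 12711 ± 7426 CPM in KO and 1612 ± 256 CPM in WT (SD, n = 3 each), a 7.88-fold rise (log2 fold change 2.98 ± 0.32, adjusted p = 0.00318). Without KO 4 the log2 fold change was 2.38 (adjusted p = 0.000231).

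Both called members of the homeostatic microglia list fell in KO. Cx3cr1 (chromosome 9, 119901616 to 120069879), the receptor of the neuronal chemokine fractalkine, stood at 1718, 2218 and 2771 CPM in KO samples, against 5609, 5531 and 7103 CPM in WT samples. It was 2.72-fold lower in KO (-1.44 ± 0.19, adjusted p = 0.0106), with no overlap. The KO mice carry CreERT2 at Cx3cr1 and WT is not labelled as carrying it, so a change of this gene through the Cre allele and one through loss of the transporters cannot be told apart. Olfml3 (chromosome 3, 103722222 to 103738001), a secreted olfactomedin-like protein enriched in microglia, stood at 1052, 1075 and 1657 CPM in KO, against 3393, 3410 and 4108 CPM in WT. It was 2.88-fold lower in KO (-1.53 ± 0.20, adjusted p = 0.0106), and the highest KO sample stood below the lowest WT sample.

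Receptors made up 3 more of the called genes. Il15ra (chromosome 2, 11705290 to 11734317), the receptor chain that binds and presents interleukin 15, stood at 198, 234 and 131 CPM in KO samples, against 51.2, 57.1 and 63.9 CPM in WT samples. It rose 3.27-fold in KO (1.71 ± 0.25, adjusted p = 0.0245). Lifr (chromosome 15, 7090614 to 7197489), the receptor of leukaemia inhibitory factor, stood at 316, 237 and 267 CPM in KO, against 108, 94.9 and 138 CPM in WT. It rose 2.40-fold (1.26 ± 0.20, adjusted p = 0.0443), the smallest change among the called genes. Cd72 (chromosome 4, 43446462 to 43454628), an inhibitory lectin-like receptor best known from B cells, stood at 10.9, 23.3 and 33.4 CPM in KO, against 96.7, 211 and 119 CPM in WT. It was 6.32-fold lower in KO (-2.66 ± 0.41, adjusted p = 0.0405). The 8 B cell markers summed to 301, 328 and 666 CPM in KO and to 1026, 584 and 832 CPM in WT, with overlap. Most of this was Ighm, at 236, 284 and 605 CPM in KO and 977, 536 and 760 CPM in WT (-1.01 ± 0.34, adjusted p = 0.425), while Ms4a1 and Igkc were at 0 in all 6 samples. The part of these transcripts in the difference of Cd72 was not tested.

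The products of the other 3 called genes act inside the cell. Klf13 (chromosome 7, 63886351 to 63938915), a Krüppel-like zinc finger transcription factor, stood at 430, 273 and 217 CPM in KO samples, against 89.8, 59 and 68.4 CPM in WT samples. It rose 4.23-fold (2.08 ± 0.29, adjusted p = 0.0231), with the KO samples more spread than the WT samples. Fam110a (chromosome 2, 151969398 to 151980219), a protein of the centrosome and spindle poles, stood at 14.2, 15.3 and 15.8 CPM in KO, against 67.4, 34.8 and 44.2 CPM in WT. It was 3.23-fold lower in KO (-1.69 ± 0.26, adjusted p = 0.0405), and here the spread lay in WT. Hspa1b (chromosome 17, 34956436 to 34959238), an inducible heat shock protein of the HSP70 family, stood at 4.22, 8.33 and 16.5 CPM in KO, against 67.4, 175 and 180 CPM in WT. It was 14.5-fold lower in KO (-3.86 ± 0.62, adjusted p = 0.0433), the widest difference among the called genes. Hspa1b is nearly identical to its neighbour Hspa1a, so its own share of the reads is uncertain; Hspa1a stood at 55.2, 10.7 and 80.9 CPM in KO, against 164, 251 and 304 CPM in WT (-2.29 ± 0.70, adjusted p = 0.386).

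The single libraries are technical parts of the sums on which the genes were called, so their separation is no independent support. For 8 of the 9 genes, all 9 KO libraries lay beyond all 9 WT libraries, and for Cd72 this was so of 8 KO libraries. The summed counts behind the weakest genes were ample: 297 to 1320 counts in KO and 3541 to 11022 in WT for Hspa1b, and 999 to 1260 in KO and 2163 to 3536 in WT for Fam110a. Klf13, Cx3cr1 and Cd72 overlap other annotated genes and the strand setting of the counting was not given in the sources used here; those overlapping genes averaged at most 42.8 CPM in either group for Cx3cr1, and at most 2.75 CPM for Klf13 and Cd72.

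**Figure D2:**
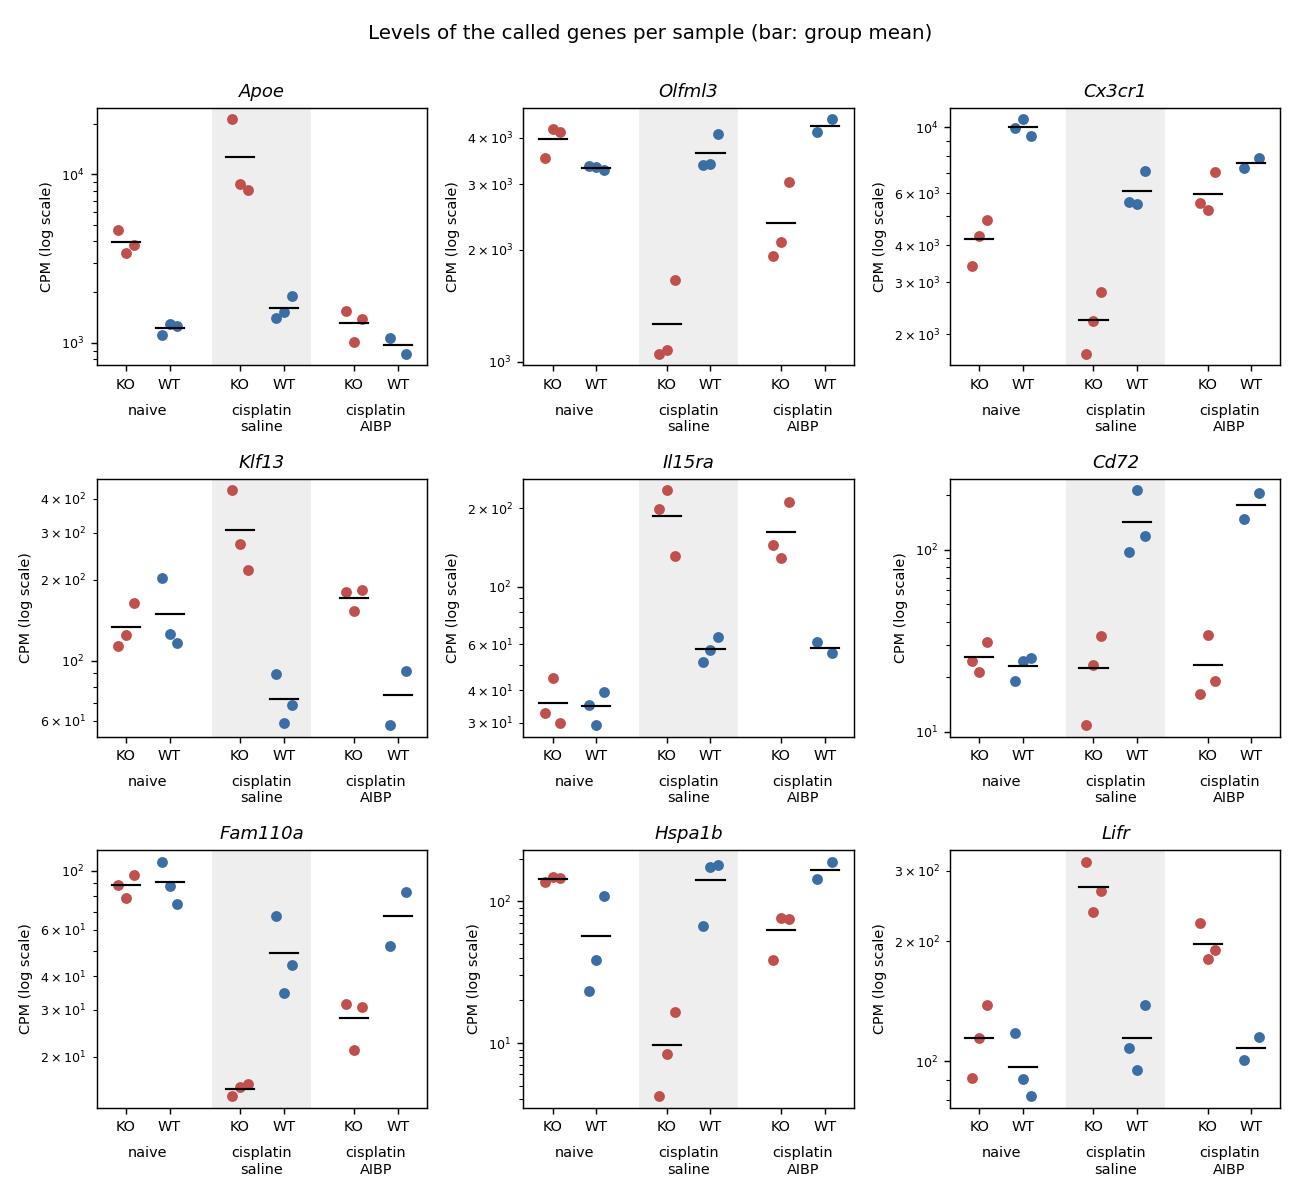
CPM on a log axis is plotted for each of the 9 called genes in every sample of the 6 groups, with KO in red and WT in blue, a black bar at each group mean, and the cisplatin and saline groups shaded. In the shaded pair the KO points lie wholly above the WT points for Apoe, Klf13, Il15ra and Lifr and wholly below them for the other 5 genes.

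The same genotype difference was then read in the other treatments, whose samples are separate from those above and share only the estimate of spread. In the 3 samples labelled KO and given AIBP, Cx3cr1 (5250 to 7078 CPM) and Apoe (1007 to 1541 CPM) lay outside the range of the other 6 KO samples (1718 to 4871 CPM and 3421 to 21278 CPM) and close to or within that of the 8 WT samples (5531 to 10656 CPM and 862 to 1898 CPM). In the same 3 samples, Cd72 (16.2 to 34.1 CPM) stood below the 2 WT samples given AIBP (147 and 204 CPM). Il15ra (129 to 212 CPM) stood above them (55.5 and 61.1 CPM). Whether the genotype labels of these KO samples hold is uncertain and was not tested. Every KO minus WT value after AIBP rests on those labels. After cisplatin and AIBP, the fitted log2 fold change between the samples labelled KO and WT had the same sign as after saline for all 9 genes, and in naive mice for 5 of 9. None of the 9 was called in either treatment by edgeR. Over all genes, 0 were called between KO and WT after AIBP (1299 at an unadjusted p under 0.05) and 1 in naive mice (1220 at an unadjusted p under 0.05). The genes were chosen for their size after saline, so a smaller value elsewhere is no result.

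The difference of Cd72 was as wide after AIBP as after saline. It stood at 16.2, 34.1 and 19 CPM in KO, against 147 and 204 CPM in WT after AIBP (-2.93 ± 0.44, adjusted p = 0.185), whereas the naive samples overlapped, at 24.4, 21.3 and 31.1 CPM in KO and 19, 24.3 and 25.3 CPM in WT. Its KO means were 25.6 CPM in naive mice, 22.5 CPM after saline and 23.1 CPM after AIBP, and its WT means were 22.9, 142 and 176 CPM in the same order. Il15ra stood apart after AIBP too, at 144, 129 and 212 CPM in KO against 61.1 and 55.5 CPM in WT (1.47 ± 0.28, adjusted p = 0.46). Klf13 (1.21 ± 0.33, adjusted p = 0.732), Lifr (0.87 ± 0.23, adjusted p = 0.709) and Fam110a (-1.28 ± 0.28, adjusted p = 0.58) likewise had no overlap after AIBP, with log2 fold changes of -0.15, 0.24 and -0.03 in naive mice.

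Outside the saline comparison, the gap for Apoe and Cx3cr1 was wider in naive mice than after AIBP. Apoe stood at 4693, 3421 and 3799 CPM in naive KO, against 1120, 1297 and 1264 CPM in naive WT (1.69 ± 0.30, adjusted p = 0.243). After AIBP it stood at 1541, 1007 and 1389 CPM in the samples labelled KO, against 1073 and 862 CPM in WT (0.44 ± 0.34, adjusted p = 0.789). Cx3cr1 stood at 3397, 4291 and 4871 CPM in naive KO, against 9989, 10656 and 9349 CPM in naive WT (-1.26 ± 0.19, adjusted p = 0.0757). After AIBP it stood at 5551, 5250 and 7078 CPM in the samples labelled KO, against 7297 and 7902 CPM in WT (-0.35 ± 0.20, adjusted p = 0.743). The naive groups did not overlap for either gene, and after AIBP the WT values touched the KO range for Apoe only.

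Whether the genotype difference itself changed with treatment was tested with the interaction. No gene passed between saline and naive (1561 at an unadjusted p under 0.05) or between saline and AIBP (1285). Against naive, the widest interactions among the 9 were those of Hspa1b (-5.20 ± 0.82, adjusted p = 0.16), which stood at 137, 150 and 146 CPM in naive KO and 23.2, 38.6 and 109 CPM in naive WT, and of Cd72 (-2.82 ± 0.56, adjusted p = 0.374). The interaction of Olfml3 against naive was -1.78 ± 0.27 (adjusted p = 0.16). Against AIBP, the interaction of Apoe was 2.54 ± 0.44 and that of Cx3cr1 -1.09 ± 0.28 (adjusted p = 0.774 for both).

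**Figure D3:**
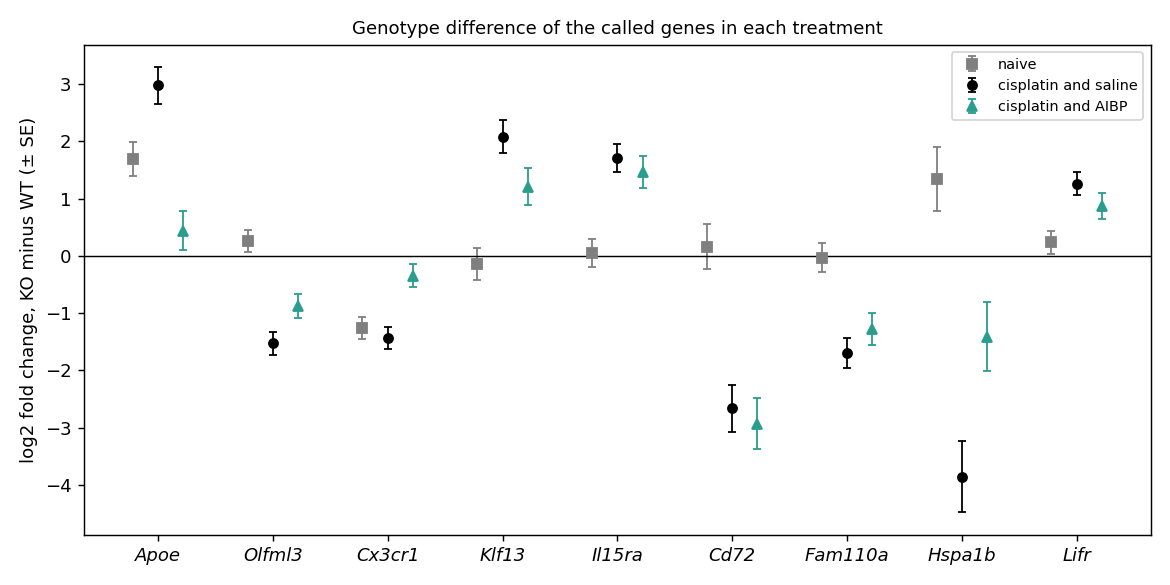
The log2 fold change (KO minus WT) of the 9 called genes is plotted with its SE for naive mice (grey squares), after cisplatin and saline (black circles) and after cisplatin and AIBP (green triangles). All 9 saline and AIBP values lie on the same side of 0, while 4 naive values lie on the other side.

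Gene lists are described by counts of their tested members, with no list test. Over all 20461 genes the median log2 fold change was -0.01, the 3 KO samples all lay above the 3 WT samples for 6.10% and all below them for 6.40%.

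Among 20 homeostatic microglia genes, Olfml3 and Cx3cr1 fell, 18 did not pass, and the 3 KO samples all lay below WT for 8. Fitted changes were below 0 for 19 of 20 and the median was -0.64. Cst3, the protease inhibitor cystatin C, stood at 8810, 6475 and 6811 CPM in KO, against 18355, 10175 and 15694 CPM in WT (-1.0 ± 0.20, adjusted p = 0.154). Bin1, a membrane-bending adaptor, stood at 204, 286 and 488 CPM in KO, against 829, 690 and 748 CPM in WT (-1.21 ± 0.26, adjusted p = 0.154). Groups did not overlap for either. The purinergic receptor P2ry12 did overlap, at 1306, 1123 and 1306 CPM in KO and 2584, 1008 and 2015 CPM in WT. The list's median was -0.49 after AIBP and -0.12 in naive mice. In bulk RNA, fewer cells of a type and less RNA per cell cannot be told apart.

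In the list of apolipoproteins and LXR targets, Apoe was the 1 of 17 tested members that passed, and the list's median was 0.07 (0.41 without WT 5 and 6, when 1 WT sample is left), with 9 members above and 8 below 0. Scd2, a fatty acid desaturase, stood at 139, 93 and 65.8 CPM in KO, against 38.2, 22.9 and 32.9 CPM in WT (1.66 ± 0.34, adjusted p = 0.154). Srebf1, the sterol-regulated transcription factor of fatty acid synthesis, stood at 116, 31.8 and 48.8 CPM in KO and 48.6, 30.5 and 31.3 CPM in WT, with overlap (0.83 ± 0.39, adjusted p = 0.553). The 9 cholesterol exporters had 0 called members and a median of 0.07; the lysosomal cholesterol transporter Npc1 was all above WT in KO (0.47 ± 0.32, adjusted p = 0.655).

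None of the 24 cholesterol synthesis genes passed, but the 3 KO samples all lay below WT for 9 and all above for 0 (median -0.27, and -0.44 without WT 5 and 6). Cyp51, the lanosterol demethylase, stood at 21.9, 23.4 and 32.3 CPM in KO, against 58.6, 48.7 and 69.4 CPM in WT (-1.19 ± 0.27, adjusted p = 0.191). The methylsterol oxidase Msmo1 stood at 46.9, 53.8 and 52.2 CPM in KO, against 99.9, 74.1 and 107 CPM in WT (-0.88 ± 0.29, adjusted p = 0.416). Both groups of samples stood apart. The synthesis list had a median of -0.11 in naive mice and -0.05 after AIBP.

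Chemokines and cytokines had no called member either. The 3 KO samples all lay below WT for 8 of 19 chemokine genes and 4 of 16 inflammatory cytokine genes, and all above for 0 in both (medians -0.76 and -0.72). Ccl2, which attracts monocytes, stood at 66, 102 and 226 CPM in KO, against 276, 573 and 460 CPM in WT (-1.73 ± 0.47, adjusted p = 0.3). Ccl4 stood at 74.5, 22.1 and 306 CPM in KO, against 779, 539 and 541 CPM in WT (-2.21 ± 0.71, adjusted p = 0.41). Tnf overlapped, at 39.2, 11.4 and 112 CPM in KO and 268, 100.0 and 123 CPM in WT (-1.60 ± 0.65, adjusted p = 0.526). KO 6 was the highest KO sample for all 3 genes. Medians of both lists were above 0 after AIBP, at 0.58 for chemokines and 0.46 for cytokines.

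Of 22 raft and toll-like receptor 4 signalling genes 0 passed (median 0.11). Fitted changes were above 0 for 15 and below 0 for 7, and the KO samples lay all below WT for 2. Cd14, the co-receptor of toll-like receptor 4, stood at 736, 553 and 795 CPM in KO, against 1456, 1404 and 1357 CPM in WT (-1.02 ± 0.23, adjusted p = 0.191). Tlr4 itself stood at 72.6, 60.5 and 70.9 CPM in KO, against 84.8, 107 and 83.6 CPM in WT (-0.43 ± 0.24, adjusted p = 0.583). Cd14 and Tlr4 lay wholly below WT. Tlr7 (0.96 ± 0.32, adjusted p = 0.42) and Irak2 (0.69 ± 0.25, adjusted p = 0.469) had fitted changes above 0, with overlap.

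All 22 immediate early and dissociation genes had fitted changes below 0 (median -1.15, and -1.93 without WT 5 and 6), but 0 passed and the KO samples lay all below WT for 2, the chemokine genes Ccl3 and Ccl4, which the chemokine list also holds. Atf3, a stress-induced transcription factor, stood at 31.7, 11.7 and 123 CPM in KO and 466, 112 and 138 CPM in WT. For Atf3 too KO 6 was the highest KO sample, and WT 4 was the highest WT sample. After AIBP the list's median was 1.69, with 21 of 22 members above 0, and in naive mice it was -0.32.

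Of 15 heat shock genes, Hspa1b fell, 14 did not pass, and 7 lay all below WT (median -0.84, and -0.35 without WT 5 and 6, when 1 WT sample is left). Hsp90aa1, an inducible chaperone, stood at 90.5, 124 and 197 CPM in KO, against 301, 292 and 326 CPM in WT (-1.16 ± 0.26, adjusted p = 0.175). Dnajb1, a co-chaperone of the HSP70 proteins, stood at 186, 137 and 284 CPM in KO, against 602, 568 and 471 CPM in WT (-1.44 ± 0.44, adjusted p = 0.386). Both stood apart between the groups. The heat shock median was 0.59 in naive mice, with 10 of 15 members above 0, and 0.05 after AIBP, with 11 above 0. None of 17 endoplasmic reticulum stress genes passed and 7 lay all below WT (median -0.58, and -0.15 without WT 5 and 6). Sdf2l1, a chaperone-associated protein of that compartment, stood at 362, 525 and 585 CPM in KO, against 796, 1229 and 969 CPM in WT (-1.02 ± 0.22, adjusted p = 0.154).

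Proliferation genes had 0 of 18 called, and 10 lay all below WT (median -0.87). Mcm3, a subunit of the replication helicase, stood at 153, 193 and 245 CPM in KO, against 307, 434 and 337 CPM in WT (-0.87 ± 0.24, adjusted p = 0.301). Top2a, a topoisomerase of dividing cells, stood at 2.09, 4.45 and 8.35 CPM in KO, against 22.9, 15.3 and 17.5 CPM in WT (-1.90 ± 0.69, adjusted p = 0.475). The list's median was -0.66 after AIBP, with 17 of 18 members below 0, and 0.29 in naive mice.

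Of 14 glucocorticoid-responsive genes, 0 passed, 7 lay all above WT and 1 all below (median 1.43, and 0.55 without WT 5 and 6). Fitted changes were above 0 for 10 and below 0 for 4. Over the 11 members at 10 CPM or more in at least 3 samples, the median was 0.40. Ddit4, an inhibitor of mTOR signalling, stood at 33.6, 21.7 and 14.2 CPM in KO, against 1.62, 1.35 and 0.311 CPM in WT (4.4 ± 0.93, adjusted p = 0.154). Fkbp5, a co-chaperone of the glucocorticoid receptor, stood at 245, 150.0 and 162 CPM in KO, against 114, 26.7 and 31.4 CPM in WT (1.7 ± 0.57, adjusted p = 0.425), and Klf9 at 113, 28.5 and 8.29 CPM in KO, against 1.16, 2.85 and 3.43 CPM in WT (4.33 ± 1.26, adjusted p = 0.341). WT 4 stood above WT 5 and 6 for Fkbp5. This list's median was 2.35 after AIBP and 0.07 in naive mice.

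Among 79 cytosolic ribosomal protein genes, 0 passed, 28 lay all above WT and 0 all below, and 74 had fitted changes above 0, with a median of only 0.27 (0.48 without WT 5 and 6). Rpl35a stood at 178, 221 and 167 CPM in KO, against 73.2, 125 and 110 CPM in WT (0.87 ± 0.21, adjusted p = 0.218). Of 26 oxidative phosphorylation genes, 0 passed and 5 lay all above WT (median 0.24, and 0.47 without WT 5 and 6). Uqcrb, a subunit of respiratory complex III, stood at 63.4, 64.8 and 63 CPM in KO, against 39.2, 45.3 and 46 CPM in WT (0.55 ± 0.16, adjusted p = 0.328). Of 11 mitochondrially encoded genes, 0 passed and 3 lay all above WT (median 0.14, and -0.08 without WT 5 and 6); mt-Nd1, of respiratory complex I, stood at 3628, 3879 and 3950 CPM in KO, against 3058, 3059 and 2852 CPM in WT (0.35 ± 0.16, adjusted p = 0.547). The ribosomal median was 0.52 after AIBP and 0.33 in naive mice.

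Disease-associated microglia genes were mixed, with Apoe the 1 of 23 to pass and a median of -0.19, which was 0.44 without WT 5 and 6. Axl, a receptor of dying cells and debris, stood at 168, 128 and 115 CPM in KO, against 86.7, 44.7 and 66.3 CPM in WT (1.06 ± 0.29, adjusted p = 0.315). Lgals3, galectin 3, stood at 21.8, 29.2 and 19.1 CPM in KO and 3.92, 271 and 287 CPM in WT. In the complement list (0 of 13 called, median 0.08, and 0.64 without WT 5 and 6) C4b stood at 37.7, 30.4 and 42.2 CPM in KO, against 4.02, 9.02 and 1.32 CPM in WT (2.94 ± 0.63, adjusted p = 0.154). Interferon-stimulated genes had a median of 0.13 here (0 of 23 called), of 0.97 without WT 5 and 6 and of 1.72 in naive mice, where all 23 lay above 0. Hexa, a lysosomal hydrolase, stood at 430, 393 and 481 CPM in KO, against 912, 598 and 794 CPM in WT (-0.82 ± 0.17, adjusted p = 0.154), in a lysosome list with a median of 0.07. Secreted matrix and signalling genes had a median of -0.27 and of 1.25 without WT 5 and 6, and Lrg1, a secreted glycoprotein, stood at 106, 64.8 and 36.7 CPM in KO, against 3.39, 3.1 and 7.31 CPM in WT (3.91 ± 0.83, adjusted p = 0.154).

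**Figure D4:**
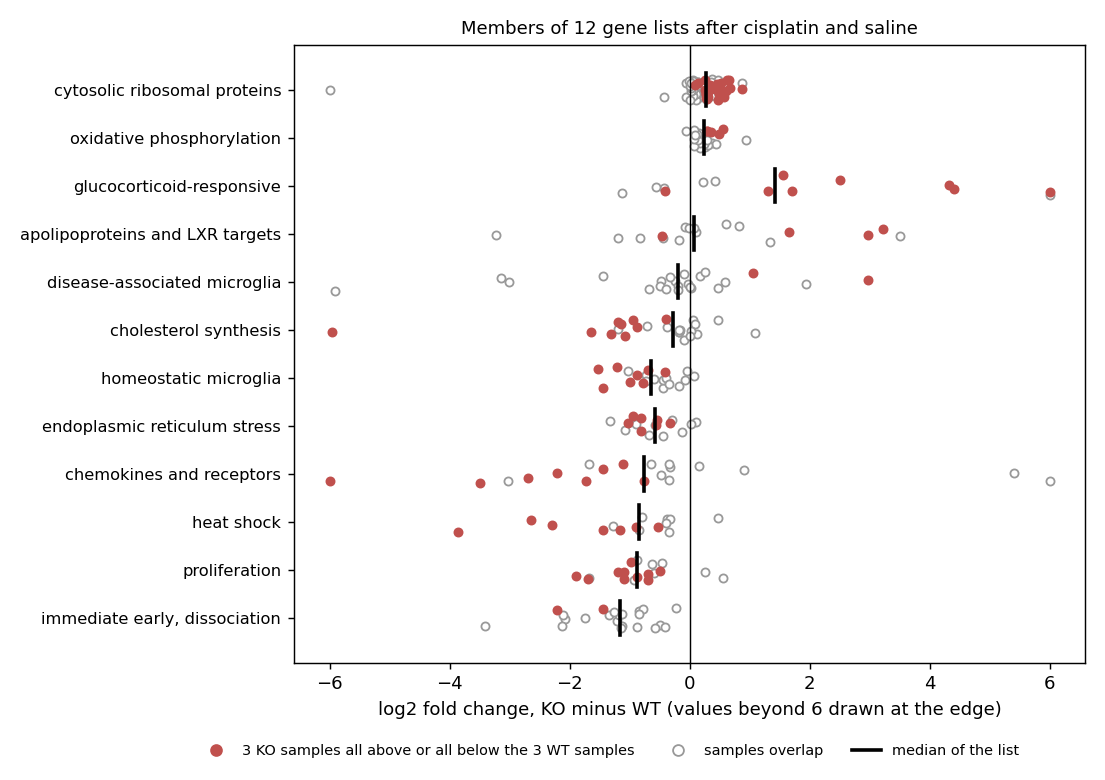
Each point is 1 tested member of 1 of 12 gene lists, placed at its log2 fold change (KO minus WT) after cisplatin and saline and filled red where the KO and WT samples do not overlap, and black bars mark list medians. Most filled points lie below 0 for homeostatic, cholesterol synthesis, chemokine, heat shock and proliferation genes and above 0 for ribosomal protein and glucocorticoid-responsive genes.

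When only genes at 10 CPM or more in at least 3 samples were tested (9465 genes), 36 passed (0.380%), 15 higher and 21 lower in KO, with all 9 genes above among them. From the lists, Scd2, Ddit4 and Lrg1 passed as higher and Cst3, Bin1, Cd14, Hexa, Sdf2l1 and Hsp90aa1 as lower. Of the others, named after their values were seen, Sla, an adaptor that dampens immune receptor signalling, stood at 840, 712 and 548 CPM in KO, against 334, 267 and 388 CPM in WT (1.07 ± 0.18, adjusted p = 0.00976 under this filter). Alox5, the lipoxygenase that starts leukotriene synthesis, stood at 487, 396 and 365 CPM in KO, against 164, 237 and 181 CPM in WT (1.09 ± 0.20, adjusted p = 0.0246). The actin-bundling protein gene Fscn1 stood at 49.3, 61.6 and 113 CPM in KO, against 323, 194 and 233 CPM in WT (-1.76 ± 0.29, adjusted p = 0.00758). Nrros, which anchors latent TGF-beta on microglia, stood at 256, 289 and 291 CPM in KO, against 472, 665 and 500 CPM in WT (-0.98 ± 0.20, adjusted p = 0.0415). All 4 stood apart between the groups.

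Markers of microglia and of other cells were read in the same 6 samples. The summed level of 10 microglia markers was 23398, 19806 and 22884 CPM in KO, against 33984, 26338 and 33556 CPM in WT, all lower in KO. Cx3cr1 is among them, at 1718, 2218 and 2771 CPM in KO and 5609, 5531 and 7103 CPM in WT. Without Cx3cr1 the sums would overlap, with KO 4 above WT 5. The KO samples lay all below WT for 4 of the 10 markers, against 6.40% of all genes tested. Border macrophage markers summed to 37.2, 23.3 and 24.4 CPM in KO and 1.41, 209 and 200 CPM in WT, with Lyve1 and Cd209f at 0 in all 6. The monocyte chemokine receptor Ccr2 stood at 0.227, 4.88 and 6.74 CPM in KO and 0.324, 95.3 and 62.8 CPM in WT, and the 10 monocyte markers together at 798 to 1269 CPM in KO and 248 to 1164 CPM in WT. Most of this monocyte sum was Fn1, at 639, 1088 and 723 CPM in KO and 236, 874 and 563 CPM in WT. Ccr2 and the summed border macrophage markers were higher in WT 5 and 6 than in the other 4 samples. Not every marker followed the sum: Mrc1 stood at 13 CPM in WT 5 and 0.0981 CPM in WT 6, against 0.114 to 3.82 CPM in KO. B cell markers summed to 301 to 666 CPM in KO and 584 to 1026 CPM in WT, oligodendrocyte markers to 226 to 340 CPM in KO and 255 to 612 CPM in WT, and astrocyte markers to 146 to 172 CPM in KO and 133 to 302 CPM in WT. Neuron markers lay at 1.09 to 4.83 CPM in KO and 7.89 to 11.9 CPM in WT. T and NK cell markers lay at 1.18 to 2.47 CPM in KO and 1.96 to 4.12 CPM in WT, with Cd3e and Trac at 0. Neutrophil markers did not exceed 6.04 CPM in KO and 22.9 CPM in WT, and endothelial markers 12.6 and 13.8 CPM. Their part in the gene differences was not tested. Without WT 5 and 6, 1 WT sample is left, assumed to vary like the remaining groups, and 0 of the 9 genes passed, with Apoe at 3.15 (adjusted p = 0.106).

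**Figure D5:**
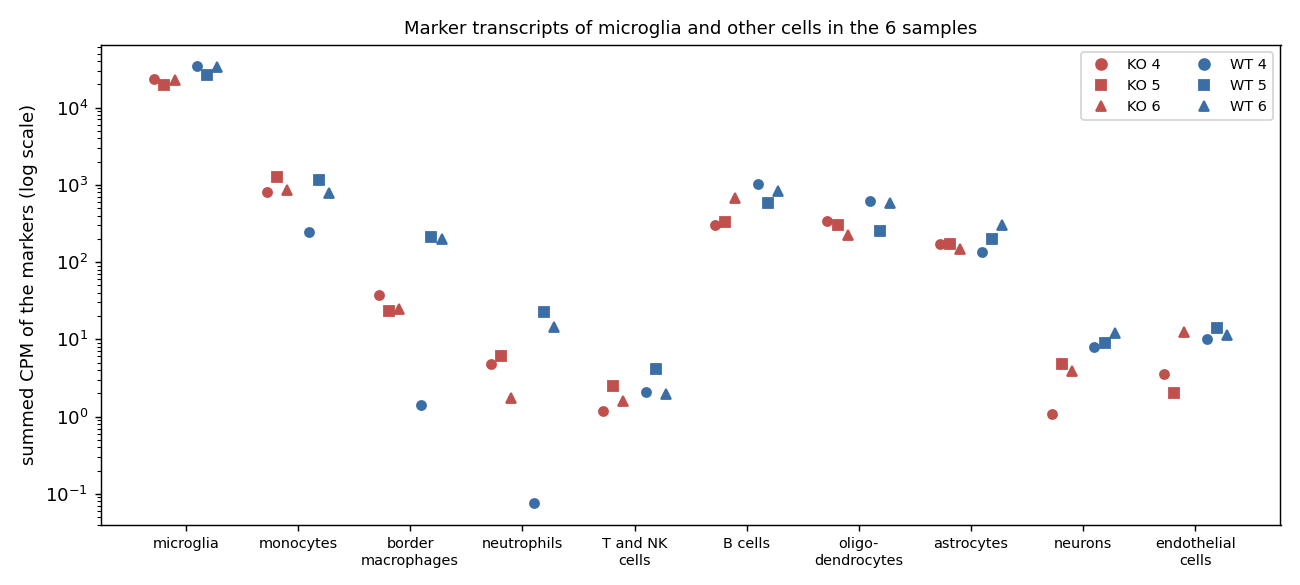
Summed CPM of the markers of 10 cell types is plotted on a log axis for each of the 3 KO (red) and 3 WT (blue) samples, with the shape giving the sample number. Microglia markers lie far above the rest in all 6 samples, and border macrophage markers span 1.41 to 209 CPM in WT.

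The 6 samples held 51.5 to 74.5 M counts each (M for mega), with 18791 to 21462 genes detected, 2.18 to 3.04% of counts mitochondrial and 9.79 to 12.7% in the 10 most abundant genes. Over 8786 genes at 10 CPM or more, Pearson's r of log2 CPM was 0.888 to 0.941 between KO samples, 0.857 to 0.94 between WT samples and 0.814 to 0.927 across genotypes; these are correlations across genes, which are not independent replicates.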

How the data were processed

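RNA of sorted lumbar spinal microglia was reverse transcribed from oligo(dT), amplified by PCR, made into Nextera XT libraries and sequenced as pairs of 50 bases, per the labels' protocols. The submitters' processing notes name bcl2fastq, FastQC 0.11.17, MultiQC 1.7, STAR 2.6.0a, DESeq2 and GRCm38; how reads were counted, and on which strand, is not given in the sources used here. Raw counts were deposited by the authors for 53715 genes in 102 runs; their table of normalized values was not used here. The 6 runs of each sample were summed. Gene IDs were named from GENCODE M21 (95 had no symbol).

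Counts were tested with edgeR 4.0.16 in R 4.3.3 (TMM factors 0.885 to 1.11, filterByExpr by group, glmQLFit and glmQLFTest, 1 mean per group over all 17 samples with 11 residual degrees of freedom), two-sided, with Benjamini-Hochberg adjustment over the 20461 genes tested and a threshold of 0.05. The common biological coefficient of variation was 0.922. SE is the size of the log2 fold change over the root of F. The fit was tested on simulated data whose spread between samples was set well below that of these data. That test therefore does not cover the spread seen here. Named were Abca1 and Abcg1, every called gene, and up to 4 members of each list with the smallest p, plus others where said. A few list members outside that rule (P2ry12, Top2a, Atf3, Lgals3 and Fkbp5) serve as examples. The comparison and the lists were chosen with earlier results of these data known. Alternatives used other scaling factors, filters, samples, blocks, limma 3.58.1 (voom) and DESeq2 1.42.0. Promoter windows are those of RefSeq on GRCm38.p6; all 9 called genes matched. Counts are of PCR-amplified molecules without identifiers, so depth gives counting error only.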

Additional observations from a re-analysis of the deposited data

How the results depend on the processing

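The 9 calls became 31 with no filter on low counts (34991 genes tested), 36 with the stricter filter, 26 with limma-voom and 397 with DESeq2; the count was 10 with RLE and 10 with upper-quartile factors. A fit of the 6 samples alone gave 0 (1079 at an unadjusted p under 0.05), and leaving WT 5 and 6 out together gave 1, which is not among the 9. Leaving out 1 sample in turn gave 1 to 32 calls: 1 without KO 4, 1 without KO 5, 32 without KO 6, 7 without WT 4, 10 without WT 5 and 2 without WT 6. Leaving technical replicate 3 out of the sums gave 3, and replicate 1 or 2 gave 7 or 8.

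Sample numbers were not taken as pairs, since the labels do not say that a number marks a shared litter, batch or day. The deviations of same-numbered KO and WT samples correlated at 0.0208, 0.161 and -0.0739, and those of differently numbered samples at -0.179 to 0.139. With 3 samples a group, these values cannot settle whether the numbers mark pairs. With the sample number as a replicate block, fitted on the 6 samples alone, 0 genes passed (1054 at an unadjusted p under 0.05), as in the fit of those samples without the block. With the 51 libraries as units and the technical replicate number as a replicate block, 487 passed; libraries of a sample are not independent, so those p-values are too small.

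All 9 genes kept their direction in all 19 alternatives. These reuse the same samples, in which the groups did not overlap for these genes, so the kept direction is no independent support. Apoe was called in 16 of them (2.38 to 3.22), Olfml3 and Cx3cr1 in 13 each, and Fam110a in 7 (-2.18 to -1.39). RLE and upper-quartile factors moved each of the 38 list medians by less than 1 SE and the median of all genes to -0.03; leaving out WT 5 and 6 moved 19 of the 38. With 3 samples a group, a p that misses the threshold does not show that a gene is alike in the 2 genotypes.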

Other observations

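G530011O06Rik, on the X chromosome and named after its values were seen, stood at 28.1, 36.4 and 46.1 CPM in KO and at 270.0, 182 and 133 CPM in WT after cisplatin and saline (log2 fold change -2.41 ± 0.38, adjusted p = 0.00627 under the stricter filter and 0.0732 over all genes tested by edgeR). Its log2 fold change was also below 0 in the separate naive (-2.34) and AIBP (-1.96) samples. Pik3ip1, an inhibitor of phosphoinositide 3-kinase, stood at 229, 25.2 and 10.3 CPM in KO, against 0.686, 1.99 and 1.24 CPM in WT (6.04 ± 1.11, adjusted p = 0.0221 under the stricter filter). The monocyte and macrophage marker Chil3 was at 116, 106 and 76.9 CPM in KO, against 0.114, 49.4 and 44.7 CPM in WT, so that it did not follow Ccr2, which was low in all 3 KO samples.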
